A study of Mus musculus with 4 samples.

Results

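Interferon response genes are a set of 34 genes whose transcripts rise in cells that have met interferon. The set was chosen by name, with earlier results of these data known. All 34 were found among the 31053 genes of the count tables of long-term (LT-HSC) and short-term (ST-HSC) hematopoietic stem cells from mouse bone marrow. A cell was called responding when it held a unique molecular identifier (UMI, 1 counted RNA molecule) of at least 3 of 6 members, Cxcl10, Ifit1, Ifit3, Isg15, Iigp1 and Gbp4. The other 28 members had no part in that choice. The questions were which members differ between the gates and which differ between responding and other cells of the same library.

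The 4 libraries came from both gates of 2 male mice aged 14 weeks, so that each mouse gave 1 LT-HSC and 1 ST-HSC library. All mice were of the strain Tie2-bG-Micm x RosaYFP, which by its name joins a transgene under the Tie2 promoter, active in endothelium and blood stem cells, with a YFP reporter at the Rosa26 locus. The labels name no treatment. Both gates were Lin-, Kit+, Sca1+ and CD48-, and LT-HSC were CD150+ where ST-HSC were CD150-.

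Interferons are secreted proteins that act through paired receptors and JAK kinases. Type I interferon leads to a complex with Stat2 and Irf9 that binds the interferon-stimulated response element, while interferon gamma acts through gamma-activated sites. The genes so switched on block viral RNA and protein synthesis, attack intracellular microbes or adjust the signal itself, and in mice interferon is known to bring dormant hematopoietic stem cells into cycle.

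The depth differed between libraries. After cells with fewer than 1000 genes or 2000 UMIs or with over 10% mitochondrial UMIs were left out, 5579 cells remained. LT-HSC of mouse 1 kept 22 of 39553 barcodes, LT-HSC of mouse 2 kept 1217 of 1288, ST-HSC of mouse 1 kept 2633 of 2793 and ST-HSC of mouse 2 kept 1707 of 1784. The kept cells held 115305 UMIs in LT-HSC of mouse 1, where 3 counts amount to 26.0 UMIs per 1e6 (CPM), and 13249904, 27870823 and 13566531 UMIs in the other libraries in the same order. The LT-HSC levels below therefore rest mainly on mouse 2. As a check of the labels, 10 stem cell markers (among them Kit, Ly6a, Procr, Mecom and Hlf) summed to between 1630 and 2107 CPM in every library, with Ctnnal1 at 0 in LT-HSC of mouse 1. The 6 multipotent progenitor markers (among them Flt3, Cd34 and Cd48) summed to 182 and 265 CPM in LT-HSC and to 1168 and 1201 CPM in ST-HSC. The 8 neutrophil markers summed to 26.0 and 165 CPM in LT-HSC of mouse 1 and mouse 2 and to 472 and 1832 CPM in ST-HSC. At most 1 kept barcode was shared between any 2 libraries.

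Promoters are shown for members at the extremes of the results below: Ifit3, Ifit3b and Cxcl10, with the highest shares of UMIs in responding cells in ST-HSC, Isg15, detected in most of them, Gbp7, which was higher in LT-HSC, and Irf1 and Samhd1, which differed least between responding and other cells. Ifit3, Cxcl10 and Isg15 are genes of the rule, so their place among these extremes is set in part by the choice of cells. Sequences are from RefSeq (GRCm38.p6), the 250 bases before the annotated start, 5′ to 3′ on the gene's strand, with capitals where the letters match GAAANNGAAA on either strand (the core of the interferon-stimulated response element) or TTCNNNGAA (the core of the gamma-activated site).
Ifit3, chr19:34583279-34583528, plus strand: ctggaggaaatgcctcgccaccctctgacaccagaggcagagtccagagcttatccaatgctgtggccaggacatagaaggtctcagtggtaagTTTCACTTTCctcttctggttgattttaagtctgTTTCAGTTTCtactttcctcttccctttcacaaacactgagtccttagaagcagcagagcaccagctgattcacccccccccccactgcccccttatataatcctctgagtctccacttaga
Ifit3b, chr19:34607707-34607956, plus strand: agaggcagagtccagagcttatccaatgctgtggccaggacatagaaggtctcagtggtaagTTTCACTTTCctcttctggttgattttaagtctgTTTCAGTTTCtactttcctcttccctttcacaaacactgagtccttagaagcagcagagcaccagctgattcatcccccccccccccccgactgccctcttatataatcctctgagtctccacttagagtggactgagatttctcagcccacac
Isg15, chr4:156200819-156201068, minus strand: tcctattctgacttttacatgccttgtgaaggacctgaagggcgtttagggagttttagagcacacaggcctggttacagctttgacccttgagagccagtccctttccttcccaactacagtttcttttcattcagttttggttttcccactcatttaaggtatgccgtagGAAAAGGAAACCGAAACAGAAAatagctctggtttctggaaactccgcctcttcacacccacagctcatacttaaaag
Cxcl10, chr5:92348890-92349139, minus strand: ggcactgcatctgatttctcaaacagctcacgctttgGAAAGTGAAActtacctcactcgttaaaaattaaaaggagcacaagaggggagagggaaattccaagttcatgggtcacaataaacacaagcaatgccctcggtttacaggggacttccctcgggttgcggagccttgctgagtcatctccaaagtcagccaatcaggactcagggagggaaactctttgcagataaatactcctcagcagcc
Gbp7, chr3:142530086-142530335, plus strand: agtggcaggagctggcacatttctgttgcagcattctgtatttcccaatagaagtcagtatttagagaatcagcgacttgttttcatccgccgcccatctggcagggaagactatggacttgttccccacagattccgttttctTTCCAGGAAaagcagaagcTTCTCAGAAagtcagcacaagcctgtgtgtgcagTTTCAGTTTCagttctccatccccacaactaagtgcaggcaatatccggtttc
Irf1, chr11:53769764-53770013, plus strand: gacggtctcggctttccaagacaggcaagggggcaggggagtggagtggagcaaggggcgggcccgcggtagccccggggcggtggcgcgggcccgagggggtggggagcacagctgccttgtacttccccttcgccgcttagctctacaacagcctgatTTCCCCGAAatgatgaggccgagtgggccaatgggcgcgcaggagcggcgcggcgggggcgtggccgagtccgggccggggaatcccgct
Samhd1, chr2:157135097-157135346, minus strand: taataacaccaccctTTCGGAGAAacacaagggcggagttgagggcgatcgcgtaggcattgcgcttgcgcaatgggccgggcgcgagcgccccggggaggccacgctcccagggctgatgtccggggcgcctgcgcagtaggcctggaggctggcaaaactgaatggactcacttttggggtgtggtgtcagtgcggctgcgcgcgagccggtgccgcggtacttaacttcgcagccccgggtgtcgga
The windows of Ifit3 and Ifit3b, neighbouring genes, each held 2 matches to GAAANNGAAA in nearly the same surroundings. Isg15 held 3 overlapping matches, starting 78 to 66 bases before the start, and Cxcl10 held 1 at 213 bases. Gbp7 held 1 such match with 2 matches to TTCNNNGAA upstream of it. Irf1 and Samhd1 held a single TTCNNNGAA each and no GAAANNGAAA. RefSeq windows of 300 bases, which also take the 50 bases from the start on, were matched for 27 of 34 members, with 32 windows. Of these windows 18 (56.2%) held GAAANNGAAA, against 3.44% of all 32851 windows, and 8 (25.0%) held TTCNNNGAA, against 8.30% of all. Among members outside the 6 genes of the rule, the median log2 fold change between responding and other cells was 1.35 for the 13 with a GAAANNGAAA match and 1.55 for the 10 with a window and no match. A match shows only that these letters stand in the window.

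Several members lie side by side in the genome (mm10). Ifit2, Ifit3, Ifit3b and Ifit1 lie at chr19:34550694-34650009, Gbp7, Gbp3 and Gbp2 at chr3:142530342-142638008, Gbp4 and Gbp6 at chr5:105115767-105293698 and Oasl2 and Oasl1 at chr5:114896936-114937915. Igtp and Irgm2 are annotated as overlapping on 1 strand at chr11:58199556-58222782, so counts of these 2 genes are uncertain. The last 300 bases of the related pairs compared (Ifit3 and Ifit3b, Gbp3 and Gbp7, Igtp and Irgm2, Oasl1 and Oasl2) were 55.3% to 62.3% identical.

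Between the gates, 3 members were called higher and 1 lower in LT-HSC, and 30 were not called. Gbp4 and Gbp7, guanylate-binding GTPases, and Iigp1, an immunity-related GTPase that attacks the vacuoles of intracellular parasites, were higher in LT-HSC. Cxcl10, a chemokine that draws Cxcr3-bearing lymphocytes, was lower in LT-HSC. These 4 of 34 members passed the threshold of 0.05 (edgeR quasi-likelihood test with Benjamini-Hochberg adjustment over 12656 genes), 11.8% of the members, where 6.72% of all genes tested passed, 3.6% as higher and 3.13% as lower. The other 30 had log2 fold changes (LT-HSC minus ST-HSC) of −0.37 to 0.83. The median over all 34 was 0.12, with 22 above 0, and the median over all genes was −0.02. These sums over cells do not separate more responding cells, more RNA per responding cell and more RNA in other cells.

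**Figure D1:**
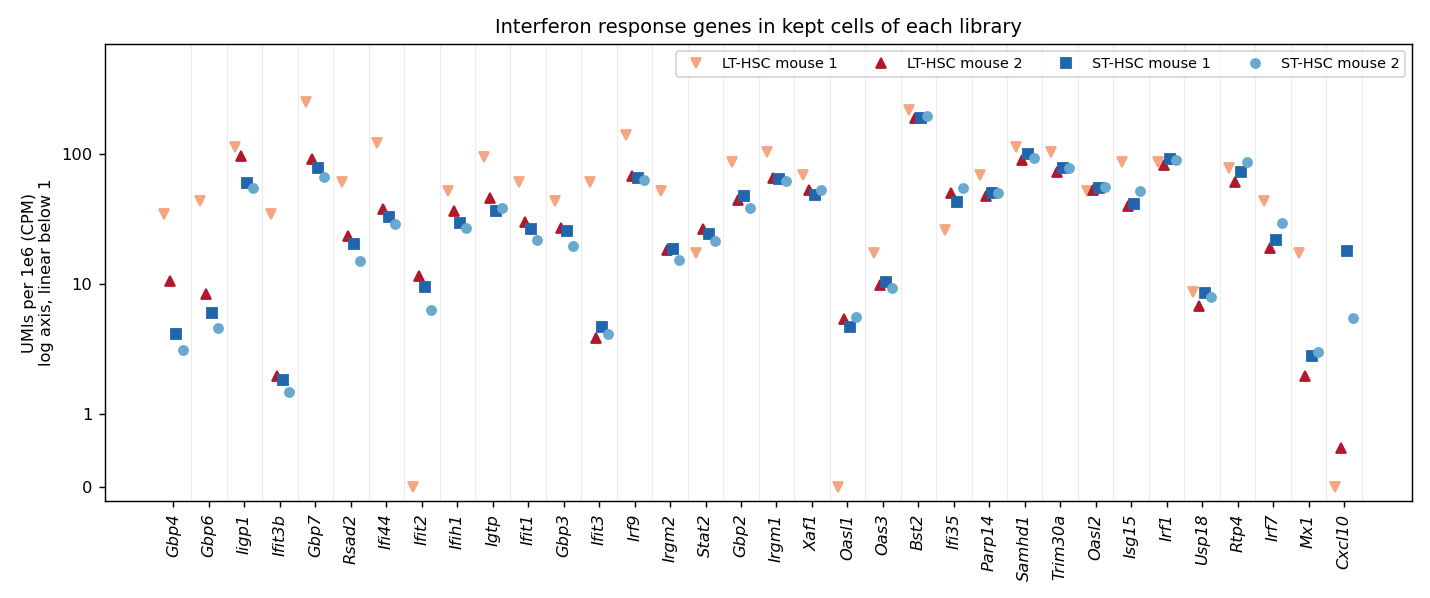
Level of each of the 34 genes in kept cells of each library (UMIs per 1e6, log axis that is linear below 1), ordered from the highest to the lowest log2 fold change of LT-HSC over ST-HSC. Gbp4, Iigp1 and Gbp7 were called higher and Cxcl10 lower in LT-HSC. Members that were not called, such as Ifi44 and Igtp, also had both LT-HSC values above both ST-HSC values. LT-HSC of mouse 1, with 22 cells, stood apart for many genes, and 3 counts there amount to 26.0 CPM.

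Gbp4 had 34.7 and 10.6 CPM in LT-HSC of mouse 1 and mouse 2, against 4.13 and 3.096 CPM in ST-HSC. The first value rests on 4 UMIs and the second on 141. The log2 fold change was 1.65 (SE 0.33, adjusted p = 2.34e-05, edgeR). Iigp1 had 113 and 96.7 CPM in LT-HSC of mouse 1 and mouse 2, against 60.0 and 54.8 CPM in ST-HSC. Its log2 fold change was 0.77 (SE 0.18, adjusted p = 8.96e-04, edgeR). Gbp7 had 252 and 91.9 CPM in LT-HSC of mouse 1 and mouse 2, against 77.9 and 66.0 CPM in ST-HSC, a log2 fold change of 0.62 (SE 0.19, adjusted p = 0.0233, edgeR). Of its 29 UMIs in LT-HSC of mouse 1, 51.7% lay in 2 responding cells, and without that library the log2 fold change was 0.35 and not past the threshold (adjusted p = 0.343).

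Cxcl10 had 0 and 7 UMIs in LT-HSC of mouse 1 and mouse 2 (0 and 0.528 CPM), against 500 and 74 UMIs in ST-HSC (17.9 and 5.45 CPM). With 0 UMIs in 22 cells, LT-HSC of mouse 1 allows a level of up to 26.0 CPM, above both ST-HSC values. The log2 fold change was −4.50 (SE 0.48, adjusted p = 6.23e-17, edgeR). The ST-HSC transcripts sat in few cells. In ST-HSC of mouse 1, 4 cells with at least 10 Cxcl10 UMIs held 84.2% of them, and in ST-HSC of mouse 2, 1 such cell held 56.8%. Without these 5 cells the log2 fold change was −2.31 (SE 0.60) and still past the threshold (adjusted p = 0.00362, edgeR).

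The calls between gates depended on single libraries. Without LT-HSC of mouse 2 no member passed (adjusted p from 0.215 to 0.853 for these 4), where 0.00776% of all genes, 1 gene, did. Without either ST-HSC library only Gbp4 and Cxcl10 of the members passed, where 5.64% of all genes did without mouse 1 and 7.37% without mouse 2, with Iigp1 at an adjusted p of 0.0712 without mouse 1 and 0.164 without mouse 2. DESeq2 called 0 members, where it called 0.385% of 13502 genes, with 5 members at an unadjusted p under 0.05 (1.44% of all genes), against 8 in edgeR (13.6% of all genes). With the mouse as a block, 5 members were higher in LT-HSC, the added ones being Gbp6 (log2 fold change 1.03, adjusted p = 0.0233) and Ifit2 (0.78, adjusted p = 0.0407), where 3.54% of all genes were higher. With every barcode of the mouse 1 LT-HSC library in place of its 22 cells, Gbp4 (1.58), Iigp1 (0.58) and Gbp6 (0.82) were higher in LT-HSC, and Cxcl10 was not past the threshold (−1.997, adjusted p = 0.0881), nor was Gbp7 (0.15, adjusted p = 0.734), where 8.87% of all genes passed, 5.04% as higher and 3.82% as lower.

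Responding cells were found in every library. They made up 2 of 22 cells in LT-HSC of mouse 1 (9.09%, exact 95% interval 1.12 to 29.2%) and 85 of 1217 in LT-HSC of mouse 2 (6.98%, 5.62 to 8.56%). In ST-HSC they were 139 of 2633 cells in mouse 1 (5.28%, 4.46 to 6.203%) and 55 of 1707 in mouse 2 (3.22%, 2.44 to 4.17%). The intervals cover counting error only, and with 2 libraries a gate no exact permutation test over libraries can pass 0.05, so the gates were not tested. The share depends on depth. With each cell thinned to 3000 UMIs it was 14.3% and 1.43% in LT-HSC of mouse 1 and mouse 2, against 1.11% and 0.941% in ST-HSC, with 8 and 26 shallower cells left out in LT-HSC and 16 and 6 in ST-HSC. The interval of LT-HSC of mouse 1, 2 of 14 cells, was 1.78 to 42.8%, and those of the other libraries, 0.834 to 2.28% in LT-HSC of mouse 2 and 0.743 to 1.59% and 0.539 to 1.52% in ST-HSC, overlapped.

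The median depth of responding cells was 6075 UMIs in LT-HSC of mouse 1 (2 cells), against 4494.5 in other cells, 10503 in LT-HSC of mouse 2, against 10331.5, 10142 in ST-HSC of mouse 1, against 9870.5, and 7910 in ST-HSC of mouse 2, against 7495.5. Cells with at least 10 UMIs of neutrophil, macrophage, lymphoid or basophil markers numbered 0 and 8 in LT-HSC and 21 and 22 in ST-HSC, and 1 of them met the rule. Of cells with more than 2 times the median UMIs of their library, 0 of 3 and 3 of 35 (8.57%) responded in LT-HSC of mouse 1 and mouse 2, against 16 of 79 (20.3%) and 6 of 43 (14.0%) in ST-HSC. No doublet caller was run, and without these cells all 28 members outside the rule were still higher in responding cells and the same 4 members passed between gates. Barcodes under 500 UMIs in LT-HSC of mouse 1 also held transcripts of members, with 65.5 CPM of Iigp1 and 33.1 CPM of Isg15, and the part of free RNA in the levels was not tested.

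Which genes of the rule were detected differed by library. Iigp1 had a UMI in 85 of 85 responding cells in LT-HSC of mouse 2, in 127 of 139 in mouse 1's ST-HSC library and in 50 of 55 in mouse 2's. It was also detected in 34.3% of other cells in LT-HSC of mouse 2, against 24.3% and 20.5% in ST-HSC. Cxcl10 was detected in 4 of 85 responding cells in LT-HSC of mouse 2, against 15 of 139 and 7 of 55 in ST-HSC. With the rule applied to the 5 genes other than Iigp1, 31 of 1217 cells responded in LT-HSC of mouse 2, against 42 of 2633 and 18 of 1707 in ST-HSC.

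All 28 members outside the rule were higher in responding than in other cells of the same library. The test compared the summed counts of both kinds of cells over the 3 libraries with at least 5 responding cells, with the library as a block, so LT-HSC was represented by mouse 2. All 28 passed the threshold as higher (edgeR quasi-likelihood test, highest adjusted p = 6.72e-06), where 1.95% of 12281 genes passed, 1.62% as higher and 0.334% as lower. Their log2 fold changes ran from 0.48 for Samhd1 to 5.17 for Ifit3b with a median of 1.47, while the median over all genes was −0.01. The direction was the same in 3 of 3 libraries for each of the 28. The rule chose cells by genes of the same pathway, so these differences describe cells so chosen. Without ST-HSC of mouse 1, Gbp3 was not past the threshold (0.66, adjusted p = 0.321) and 27 of 28 were higher, where 1.16% of all genes were. Without the library block 22 of 28 were, where 0.48% of all genes were.

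**Figure D2:**
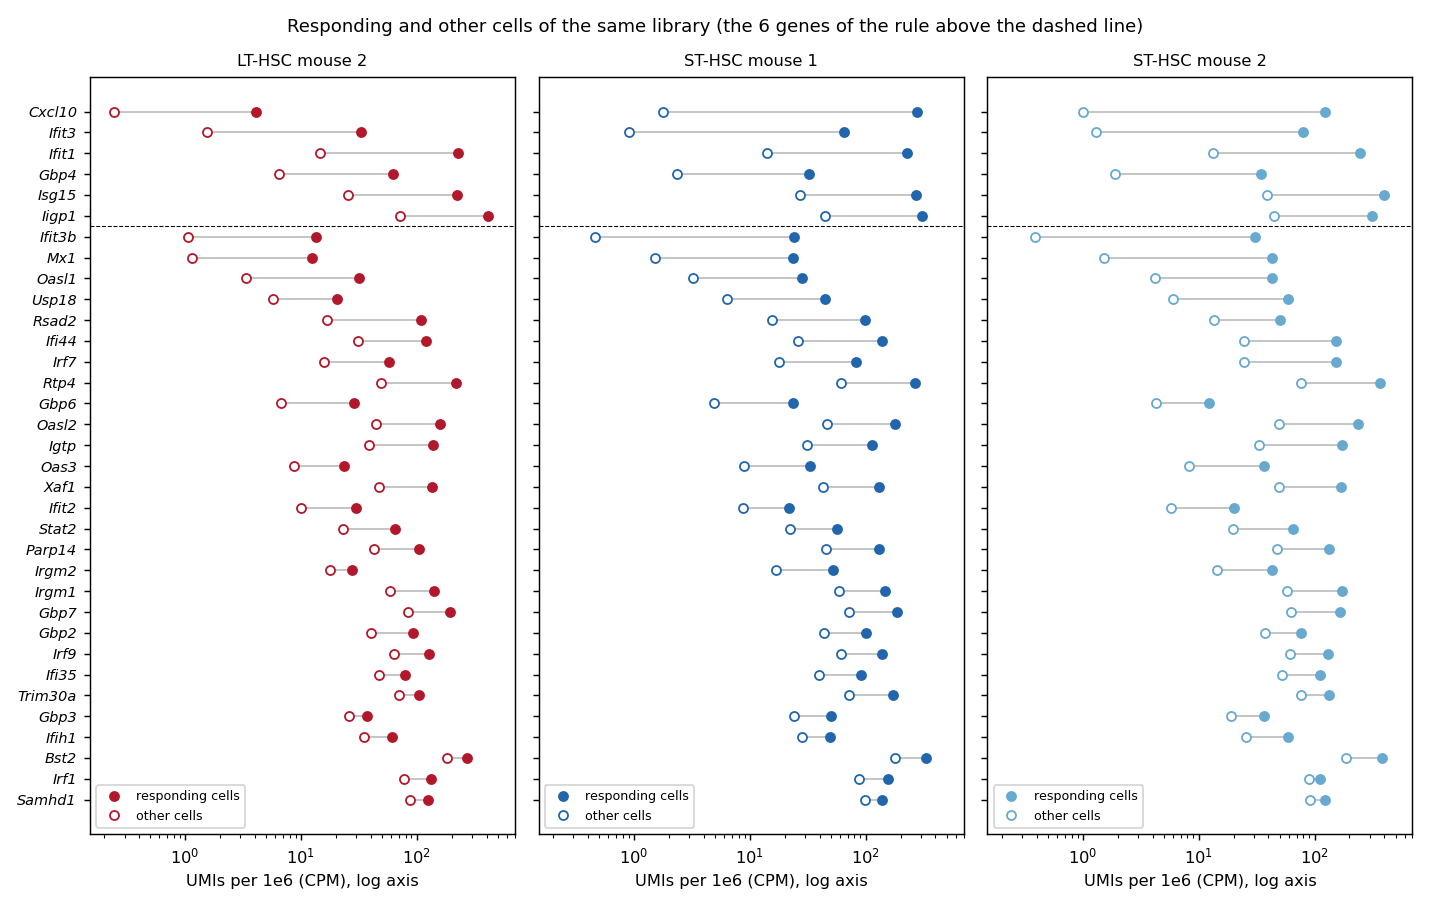
Level of each gene in responding cells (filled) and other cells (open) of the 3 libraries with at least 5 responding cells, in UMIs per 1e6 on a log axis. The 28 genes below the dashed line had no part in choosing the cells and lay higher in responding cells in 3 of 3 libraries, with Ifit3b, Mx1 and Oasl1 the farthest apart and Samhd1 and Irf1 the closest.

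Ifit3b, Mx1 and Oasl1, members of antiviral gene families, had the largest differences of the 28. Ifit3b, a relative of the RNA-binding Ifit proteins, had 13.4, 24.1 and 30.4 CPM in responding cells of LT-HSC mouse 2, ST-HSC mouse 1 and ST-HSC mouse 2, against 1.06, 0.457 and 0.382 CPM in other cells. These rest on few cells, since the 5 richest cells held 11 of 26, 31 of 51 and 16 of 20 of its UMIs. Ifit2 was higher by 1.48 (SE 0.23, edgeR), from a level of 5.81 to 10.1 CPM in other cells. Mx1, a dynamin-like GTPase that blocks influenza virus, had 12.4, 23.4 and 42.5 CPM in responding cells, against 1.14, 1.52 and 1.53 CPM in other cells, a log2 fold change of 4.08 (SE 0.34, adjusted p = 1.32e-30, edgeR). Oasl1, known in mice to restrain Irf7 translation, differed by 3.21 (SE 0.25). Oasl2 and Oas3, whose proteins make the 2-5A messenger that activates RNase L, differed by 1.99 and 1.81. The summed level of responding cells lay above that of other cells for each of these genes in 3 of 3 libraries. Single cells were not compared for these genes.

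Rsad2 (viperin, which makes a chain-terminating nucleotide) had 109, 98.7 and 50.6 CPM in responding cells of LT-HSC mouse 2, ST-HSC mouse 1 and ST-HSC mouse 2, against 16.7, 15.6 and 13.6 CPM in other cells. Its log2 fold change was 2.55 (SE 0.14), and its responding level was lower in ST-HSC of mouse 2 than in the other libraries. Rtp4, which binds flaviviral replication complexes, had 217, 266 and 367 CPM in responding cells, against 48.9, 60.8 and 76.5 CPM in other cells, a log2 fold change of 2.16 (SE 0.08). Ifi44 differed by 2.31, Xaf1, a pro-apoptotic factor, by 1.61 and Parp14, an ADP-ribosyltransferase, by 1.45. Ifi35 differed by 1.03, Trim30a by 0.97 and Bst2 (tetherin, which holds budding virus at the cell surface) by 0.82. Samhd1, which breaks down nucleotides needed for reverse transcription, had 124, 138 and 124 CPM in responding cells, against 87.9, 98.1 and 91.5 CPM in other cells. This was the smallest difference of the 28 members, at 0.48 (SE 0.09, adjusted p = 6.72e-06, edgeR).

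Members that carry or limit the signal were higher as well. Irf7, the factor that amplifies type I interferon production, had 57.8, 83.3 and 154 CPM in responding cells, against 15.8, 17.9 and 24.7 CPM in other cells, a log2 fold change of 2.25 (SE 0.13). Stat2 and Irf9, partners in the type I complex, differed by 1.46 (SE 0.14) and 1.11 (SE 0.09). Irf1, a factor induced by interferon gamma, had 133, 157 and 111 CPM in responding cells, against 78.1, 87.7 and 89.9 CPM in other cells, and differed by 0.72 (SE 0.09). Usp18, which removes Isg15 from proteins and shuts off the type I receptor, had 20.6, 44.4 and 58.7 CPM in responding cells, against 5.70, 6.32 and 6.04 CPM in other cells, a log2 fold change of 2.70 (SE 0.21). Ifih1, the Mda5 sensor of long double-stranded RNA, differed by 0.88 (SE 0.14).

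The GTPases that act on intracellular microbes lay in between. Igtp differed by 1.97 (SE 0.10), Irgm1 and Irgm2, which hold the other immunity-related GTPases in check, both by 1.35. Gbp6 had 28.9, 23.4 and 12.2 CPM in responding cells, against 6.76, 4.91 and 4.28 CPM in other cells, a log2 fold change of 2.08 (SE 0.25). Gbp7, Gbp2 and Gbp3 differed by 1.34, 1.17 and 0.88. Gbp7, higher in LT-HSC over all cells, had 195 CPM in responding cells of LT-HSC mouse 2 and 187 and 166 CPM in those of ST-HSC. Its level in other cells was 83.7 CPM in LT-HSC of mouse 2, against 71.1 and 62.2 CPM in ST-HSC.

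The 6 genes of the rule define the responding cells, so their levels there are a description. Cxcl10 had 4.13, 279 and 124 CPM in responding cells of LT-HSC mouse 2, ST-HSC mouse 1 and ST-HSC mouse 2, against 0.244, 1.79 and 0.994 CPM in other cells. Ifit1 had 227, 228 and 245 CPM in responding cells, against 14.6, 14.1 and 13.2 CPM in other cells. Each gene was also tested in cells chosen by at least 3 of the other 5 genes. The log2 fold changes were then 6.70 for Cxcl10, 5.02 for Ifit3, 3.59 for Ifit1 and 3.39 for Isg15, a ubiquitin-like modifier. For Iigp1 and Gbp4 they were 2.93 and 2.59 (SE over the 6 of 0.10 to 0.25, highest adjusted p = 2.96e-10, edgeR). These cells were still chosen by genes of the same pathway, and the share of all genes passing was not recorded. Most Cxcl10 UMIs of each ST-HSC library lay in cells with at least 10 of them, 4 in mouse 1 and 1 in mouse 2.

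The size of the difference followed the strictness of the rule. With 4 of 6 genes required the log2 fold change was larger for 28 of 28 members, with a median of 2.01, and with 2 of 6 the median was 1.14. With cells thinned to 3000 UMIs, 28 of 28 members were above 0 with a median of 1.99, and 22 passed, where 0.675% of all genes were higher. The summed level of the 28 members was higher in cells with more of the 6 genes, up to 4 genes, in these 3 libraries. They summed to 958, 975 and 979 CPM in cells with none of the 6 genes in LT-HSC mouse 2, ST-HSC mouse 1 and ST-HSC mouse 2. With 1 gene they summed to 1138, 1164 and 1246 CPM, with 2 to 1568, 1649 and 1790 CPM, with 3 to 2065, 2386 and 2726 CPM and with 4 to 3327, 3556 and 4735 CPM. In ST-HSC of mouse 1, the 5 cells with all 6 genes reached 12803 CPM, and in ST-HSC of mouse 2 the 2 such cells reached 10696 CPM. LT-HSC of mouse 2 had no cell with all 6, and its 5 cells with 5 genes reached 4882 CPM. The 1 cell with 5 genes in ST-HSC of mouse 2 had 1517 CPM.

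**Figure D3:**
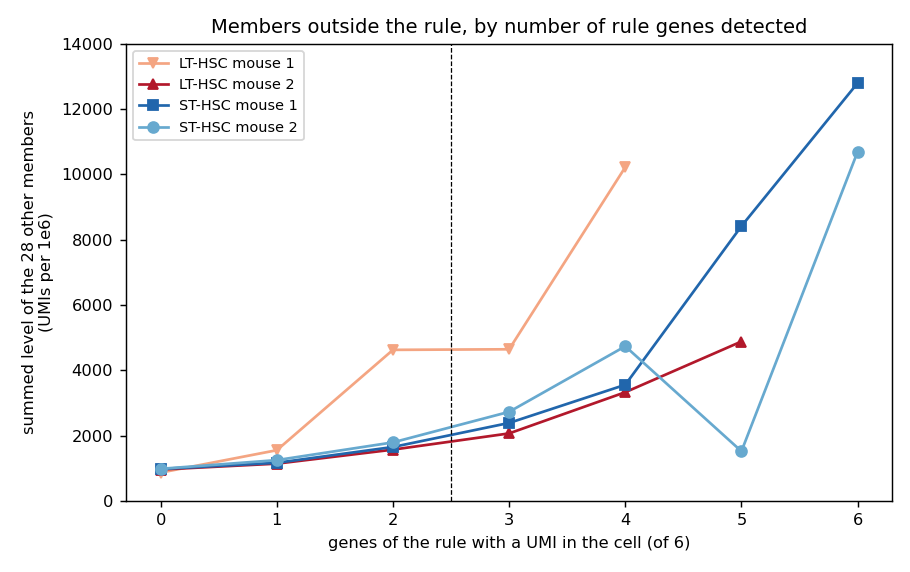
Summed level of the 28 members outside the rule (UMIs per 1e6) in cells grouped by how many of the 6 genes of the rule had a UMI, for each library; cells right of the dashed line were called responding. The sums were 958 to 979 CPM with no gene in 3 libraries and 12803 and 10696 CPM with all 6 in ST-HSC, and the points of LT-HSC of mouse 1 from 2 genes on and of ST-HSC of mouse 2 at 5 genes are 1 cell each.

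The cells richest in Cxcl10 held UMIs of most members. The 5 ST-HSC cells with at least 10 Cxcl10 UMIs held 165, 137, 74, 45 and 42 of them among 8076 to 14276 UMIs per cell. Each had UMIs of 26 to 34 of the 34 members, and 4 of the 5 had all 6 genes of the rule. All 5 had UMIs of Kit and Ly6a and 0 UMIs of C1qa, Csf1r, Siglech and Cd3e, which mark macrophages, plasmacytoid dendritic cells and T cells. Ccl5, another chemokine, also had 0 UMIs in all 5.

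Members differed in how far their transcripts were confined to responding cells. For the 6 genes of the rule, among them Cxcl10, Ifit3 and Ifit1, this share is set in part by the choice of cells. Responding cells held 7.32% of all UMIs in LT-HSC of mouse 2, against 5.82% and 3.64% in ST-HSC of mouse 1 and mouse 2. In LT-HSC of mouse 2 they held 62.7% of Ifit3 UMIs, 57.1% of Cxcl10 UMIs (4 of 7), 55.1% of Ifit1 UMIs and 13 of 26 Ifit3b UMIs. In ST-HSC of mouse 1 and mouse 2 they held 90.6% and 82.4% of Cxcl10 UMIs, 81.5% and 69.6% of Ifit3 UMIs and 76.5% and 75.0% of Ifit3b UMIs. Mx1, a gene outside the rule, had 46.2% in LT-HSC of mouse 2, against 48.7% and 51.2% in ST-HSC. Samhd1 had 10.0% in LT-HSC of mouse 2, against 7.97% and 4.85% in ST-HSC.

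**Figure D4:**
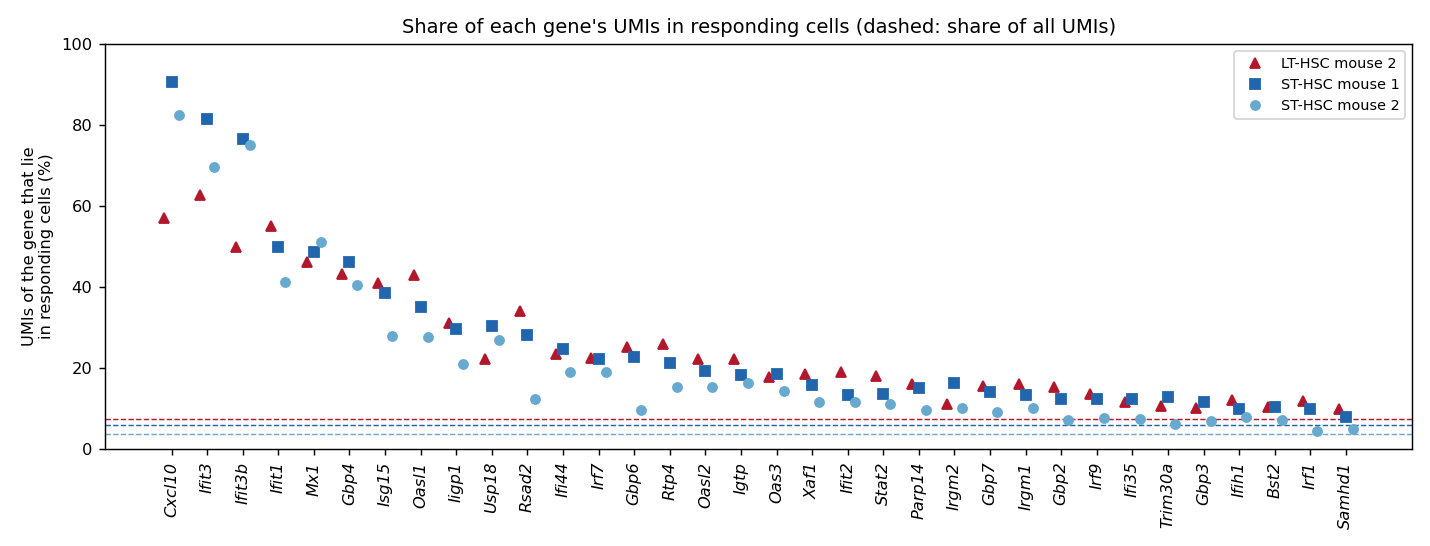
Percent of each gene's UMIs that lay in responding cells of LT-HSC mouse 2, ST-HSC mouse 1 and ST-HSC mouse 2, with the share of all UMIs as dashed lines in the same colours. Cxcl10, Ifit3 and Ifit3b had the highest shares in both ST-HSC libraries and Ifit3 in LT-HSC, while Samhd1 was closest to the dashed line in LT-HSC mouse 2 and ST-HSC mouse 1 and Irf1 in ST-HSC mouse 2. Cxcl10 and Ifit3 are genes of the rule, so their shares are set in part by the choice of cells.

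With responding cells left out, none of the 28 members outside the rule passed between gates (edgeR), where 6.72% of all genes passed, 3.51% as higher and 3.21% as lower. Gbp7 had a log2 fold change of 0.40 there (adjusted p = 0.275). Gbp4, Iigp1 and Cxcl10 are genes of the rule, so their levels in other and in responding cells are set in part by the choice of cells and bear on no gate difference. As a description, Gbp4 in other cells had 6.51 CPM in LT-HSC of mouse 2, against 2.36 and 1.91 CPM in ST-HSC, and Iigp1 had 71.9 CPM, against 44.8 and 44.9 CPM. Samhd1 and Irf1 had the smallest differences by response and did not pass between gates (−0.06 and −0.15).

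**Figure D5:**
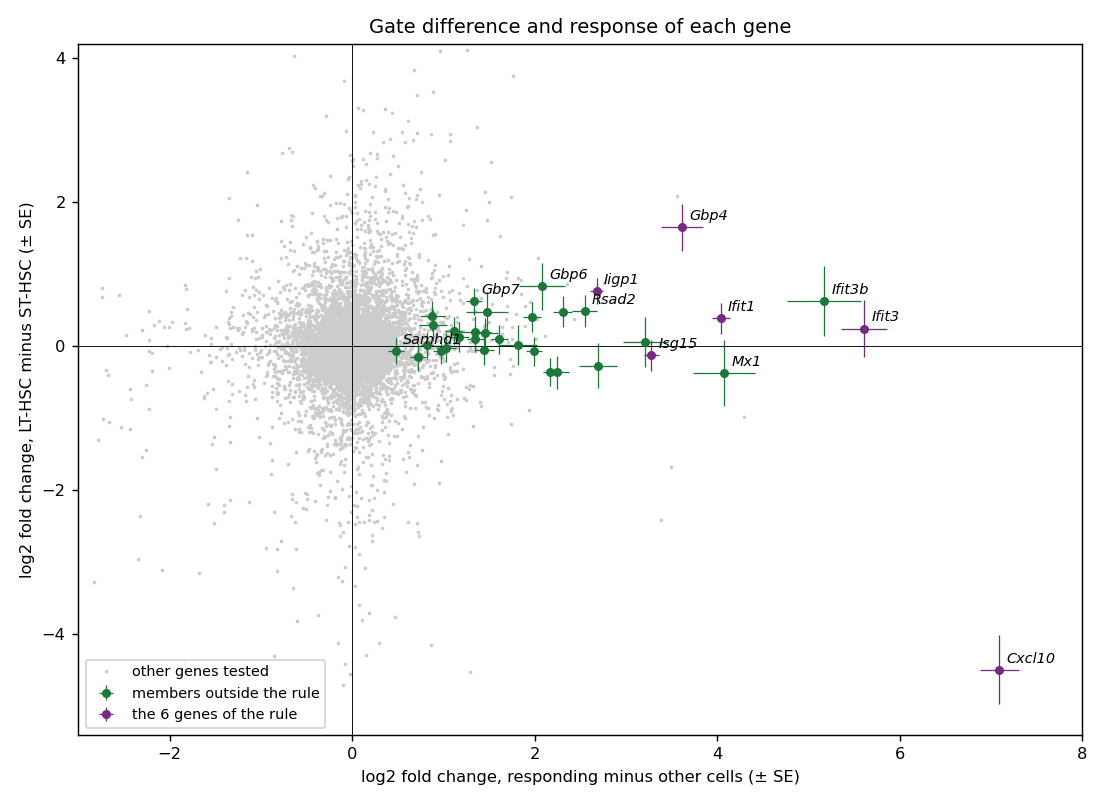
Log2 fold change of LT-HSC over ST-HSC (y axis) against that of responding over other cells (x axis), with SE bars, for the 34 members and the other genes tested in both; the labelled genes include the 4 called by gate, and other genes beyond the axes are not drawn. The 28 members outside the rule spread along the x axis from 0.48 for Samhd1 to 5.17 for Ifit3b. The x values of the 6 genes of the rule, up to 7.09 for Cxcl10, are set in part by the choice of cells. Along the y axis the 30 members not called by gate ran from −0.37 to 0.83.

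Whether the response itself differed between gates was tested as an interaction, with LT-HSC represented by mouse 2. No member passed (edgeR, lowest adjusted p = 0.565), where 0.115% of 13016 genes did, 0.0845% as higher and 0.0307% as lower. At an unadjusted p under 0.05 there were 6 of the 28 members outside the rule in edgeR, where 5.12% of all genes were, and 0 in DESeq2, where 0.145% were. The 6 values, LT-HSC minus ST-HSC, were all negative, namely Ifit3b (−2.21), Usp18 (−1.09), Irgm2 (−0.97), Trim30a (−0.55), Ifi44 (−0.51) and Bst2 (−0.37). Over the 28 the difference was negative for 21, with a median of −0.17, against −0.01 over all genes. With 1 LT-HSC library, a gate and a library cannot be told apart here. Nor were genes of the rule detected alike in these libraries. Iigp1 had a UMI in 34.3% of other cells in LT-HSC of mouse 2, against 24.3% and 20.5% in ST-HSC of mouse 1 and mouse 2. Whether this bears on the negative values was not tested.

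Genes around the members in the pathway were also described, from the interferons to their receptors and regulators. Interferon genes had at most 8 UMIs each in a library: Ifnz had 0 and 4 in LT-HSC and 8 and 4 in ST-HSC, Ifng had 0 and 0 in LT-HSC and 4 and 0 in ST-HSC, Ifna7 and Ifnab had 1 in 1 ST-HSC library each, and the rest of the 21 listed genes had none. None of these UMIs lay in a responding cell. Responding cells held 7.32% of all UMIs in LT-HSC of mouse 2 and 5.82% and 3.64% in ST-HSC, so UMIs this few show no difference. Of 5 receptor genes tested none passed in either comparison, where 1.95% of all genes passed by response and 6.72% by gate. With 5 genes, none passing is no departure from these shares. Ifnar1 had a log2 fold change of −0.14 (SE 0.17) and Ifngr1 of −0.02 (SE 0.10) between responding and other cells. The same holds for 5 other interferon regulatory factors, of which none passed in either comparison. Of 8 negative regulators besides Usp18, Socs1 was higher in responding cells (1.17, SE 0.19).

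Over all genes 1.62% were higher in responding cells. Among nucleic acid sensors 5 of 11 were, Ddx58, Dhx58, Zbp1, Eif2ak2 and Adar, with Zbp1, a sensor of Z-form nucleic acid, at 2.11 (SE 0.16). Of 47 further interferon-stimulated genes 39 were higher and none lower. They include Ifitm3 (0.62) and Ly6a (0.97), which encodes the sorting antigen Sca-1. Ly6a had 410, 505 and 612 CPM in responding cells, against 230, 244 and 299 CPM in other cells. Of 11 class I antigen presentation genes 8 were higher, by 0.74 for the transporter Tap1 and 0.21 for B2m, and of 12 NF-kB early response genes none passed. In the gate comparison no class I gene and 2 of 46 further interferon-stimulated genes were higher in LT-HSC, where 3.6% of all genes were, one of them Uba7, the Isg15-activating enzyme (1.25, SE 0.18). Ifi27l2a was lower in LT-HSC (−2.71, SE 0.28).

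Some genes that lean to interferon gamma passed in both comparisons. This list was chosen with earlier results of these data known. Of 15 tested, 13 were higher in responding cells, where 1.62% of all genes were, with a median log2 fold change of 1.35. Of 15 tested between gates, 5 were higher in LT-HSC, where 3.6% of all genes were, and none lower, with a median over the 15 of 0.75. The 5 were Serpina3g, a serpin (1.12, SE 0.19), F830016B08Rik (1.23, SE 0.24), Gm4951 (0.86, SE 0.22), Tgtp2 (0.79, SE 0.22), both GTPases related to Iigp1, and Socs1 (0.75, SE 0.23). Serpina3g had 312 and 180 CPM in LT-HSC of mouse 1 and mouse 2, against 88.9 and 97.7 CPM in ST-HSC. Of all genes outside the 34 with at least 20 CPM, those with the largest differences between responding and other cells included Gm4951 (2.35), Gbp5 (1.64), Tgtp2 (1.61) and Slfn2 (1.52), a regulator of lymphocyte quiescence.

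Of the markers of other lineages that could be tested in the response fit, none passed as higher in responding cells, but only 1 of 5 plasmacytoid dendritic, 2 of 7 T and NK, 2 of 6 B cell and 4 of 8 macrophage and monocyte markers could. The 8 neutrophil markers summed to 8.25, 16.7 and 34.4 CPM in responding cells of LT-HSC mouse 2, ST-HSC mouse 1 and ST-HSC mouse 2, against 177, 500 and 1900 CPM in other cells, and 7 of 7 tested were lower, where 0.334% of all genes were. Lcn2, an iron-scavenging granule protein, had 0 UMIs in responding cells of all 3 libraries, against 27, 337 and 790 UMIs in other cells. Camp, the cathelicidin precursor, had 0, 1 and 0 UMIs in responding cells, against 7, 939 and 1428 UMIs in other cells. Ngp, Retnlg and Ctsg, also made in granulocytes and their precursors, had at most 1 UMI in responding cells of any of the 3 libraries. Once the cells rich in other lineages' markers were left out, Retnlg (log2 fold change −0.38, adjusted p = 0.991, edgeR) and Ctsg (−2.01, adjusted p = 0.863, edgeR) did not pass. Lcn2, Camp and Ngp did not enter that test. The 8 macrophage and monocyte markers summed to 7.22, 3.70 and 12.2 CPM in responding cells, against 9.45, 25.5 and 32.7 CPM in other cells, and the 5 plasmacytoid dendritic cell markers to 2.06, 1.85 and 0 CPM, against 0.489, 4.72 and 2.45 CPM. The 7 T and NK cell markers summed to 30.9, 99.3 and 117 CPM in responding cells, against 36.2, 91.4 and 104 CPM in other cells. The 10 stem cell markers, which include Ly6a, summed to 1949, 1876 and 1997 CPM in responding cells, against 1656, 1620 and 1616 CPM in other cells, and 2 of 10 passed, Ly6a and Mllt3. Without Ly6a the other 9 summed to 1539, 1371 and 1385 CPM in responding cells, against 1426, 1376 and 1317 CPM in other cells. Without the cells rich in other lineages' markers, all 28 members outside the rule were still higher, 13 genes in all were lower, against 41 with them, and the same 4 members passed between gates.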

How the data were processed

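Single-cell 3' RNA libraries of LT-HSC and ST-HSC from 2 mice were analysed as the authors' deposited UMI count matrices. Per the submitters' processing notes, reads were processed with Cell Ranger 3.1.0 on mm10, while the matrix headers name version 3.0.2. The counts of cells with 1000 or more genes, 2000 or more UMIs and no more than 10% mitochondrial UMIs were summed per library, and per library and kind of cell for the response. No doublet caller was run. Levels are UMIs per 1e6 of the summed cells.

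Tests across all genes used the edgeR 4.0.16 quasi-likelihood test in R 4.3.3 with TMM scaling, default filtering on low counts, Benjamini-Hochberg adjustment and a threshold of 0.05. The alternatives included DESeq2 1.42.0. The edgeR gate and response tests were first run on simulated data, while the interaction test, the tests of the rule genes and DESeq2 were not. The gate fit used 4 libraries, and the response and interaction fits 3, with the library as a block, since LT-HSC of mouse 1 had 2 responding cells. In the gate fit p-values measure the spread between these libraries of 2 mice. In the response fit they measure how the difference between responding and other cells varied over the 3 libraries, 2 of them from mouse 2. In the interaction fit LT-HSC had 1 library, so the spread comes from the 2 ST-HSC libraries alone. Cells were thinned to 3000 UMIs with a fixed seed. Intervals are exact binomial (95%), and floors are 3 counts.

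Both gates came from the same animals, so the mouse numbers pair the libraries. The main gate fit held the gate alone and ignored this pairing, and the fit with the mouse as a block was an alternative. The mouse 1 minus mouse 2 deviations of the gates correlated at 0.036 over 12656 genes. With 22 cells in LT-HSC of mouse 1, this value cannot show whether the pairing matters. All 34 members are described. From each pathway list up to 3 further genes with the smallest p in the response fit and up to 2 in the gate fit could be named, with at least 5 CPM, and the 5 genes with the largest changes each way with at least 20 CPM. Other named genes were chosen after their values were seen. The members and lists were chosen with earlier results of these data known, and lists share genes. Promoter sequences are RefSeq windows (GRCm38.p6). Some items of the pathway lists are not reported here.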

Additional observations from a re-analysis of the deposited data

Results flagged for a closer look

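In the test of whether the response differed between gates, 2 genes outside the 34 that were on the pathway lists passed. Gm4951, a GTPase related to Iigp1, had a response in LT-HSC minus that in ST-HSC of −0.97 on the log2 scale (SE 0.21, adjusted p = 0.0037, edgeR). It had 100.04 CPM in responding cells of LT-HSC mouse 2, against 30.8 CPM in other cells. In ST-HSC it had 124 and 119 CPM in responding cells, against 19.9 and 17.5 CPM in other cells. DESeq2 gave −0.98 and did not call it (adjusted p = 1.0).

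Ccl5, a chemokine, had a difference of 5.19 (SE 0.67, adjusted p = 3.35e-11, edgeR). In LT-HSC of mouse 2 its 17 UMIs in responding cells all lay in 1 cell, against 8 UMIs in other cells. In ST-HSC it had 30 UMIs in 8 responding cells of mouse 1, against 431 UMIs in other cells, and 3 UMIs in 1 responding cell of mouse 2, against 481. DESeq2 gave 5.66 (adjusted p = 0.0553). LT-HSC had 1 library in this test.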

How the results depend on the processing

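DESeq2 called 28 genes higher and 24 lower in LT-HSC, with 0 members each way, where edgeR called 455 and 396. With each library left out in turn, edgeR called 1 to 602 genes higher and 0 to 365 lower, with 0 to 2 members higher and 0 to 1 lower, the lowest counts being those without LT-HSC of mouse 2. There Ifit2, listed with 0 UMIs in LT-HSC of mouse 1, reversed to −9.80 (adjusted p = 0.754), and its values with a library left out ran up to 0.83. The mouse as a replicate block gave 5 members higher, and every barcode of the mouse 1 LT-HSC library gave 0 members lower.

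For responding against other cells, 199 genes were higher and 41 lower. DESeq2 gave 113 and 5, thinned cells 69 and 21, and no replicate block 57 and 0. Requiring 4 of 6 genes gave 62 lower, leaving out cells of other types 13 lower, and leaving out each library 24 to 33 lower. DESeq2 called 0 genes in the difference of the response between gates. Of the alternatives for the members' response, 351 kept direction and call and 13 lost the call, with values of 0.48 to 2.94.

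With 2, then 4 of 6 genes required, then with thinned cells, responding cells were 22.1%, 2.55% and 1.43% in LT-HSC of mouse 2. They were 16.3%, 1.25% and 1.11% in ST-HSC of mouse 1, and 11.7%, 0.762% and 0.941% in ST-HSC of mouse 2. Leaving out cells with at least 10 Cxcl10 UMIs was chosen after seeing the data. The 22 cells of LT-HSC of mouse 1 limit what the gate comparison can show.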
